A study of Caenorhabditis elegans with 27 samples.

Results

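Worms fed an equal mixture of a cco-1 RNAi clone and an atfs-1 RNAi clone were compared with worms fed an equal mixture of the cco-1 clone and the empty vector. The comparison takes 6 of the 27 libraries, 3 of each mixture, and was described across all 16435 genes that passed a filter on low counts. It asks which transcripts changed when the empty vector in a cco-1 feeding mixture was replaced by the clone against atfs-1. RNAi feeding delivers double-stranded RNA through the bacteria that the worms eat, here Escherichia coli HT115.

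In the mixture with the atfs-1 clone, 50% of the bacteria carried the cco-1 clone and 50% the atfs-1 clone, and in the other mixture 50% carried the cco-1 clone and 50% the empty vector (ev). The cco-1 clone was therefore present at the same share in every library compared. A second pair of mixtures, with mrps-5 in place of cco-1 at the same shares, is set beside the first and called the mrps-5 arm. All worms were C. elegans N2 with a wild-type genotype, and the series design adds an hsp-6::GFP reporter. Feeding began at the egg, at 20 degrees, and whole worms were frozen after 2 days, when they were at the L4 or young adult stage. The labels do not say whether libraries of one group came from separate cultures, so the p-values cover only how these libraries varied, and that variation may be technical. Whole worms were sequenced as one sample, so fewer cells of a type and less RNA per cell cannot be told apart.

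ATFS-1 is a bZIP transcription factor with a mitochondrial targeting signal. In healthy worms it is imported into mitochondria and degraded, and when import falters it enters the nucleus and activates genes of the mitochondrial unfolded protein response, which include mitochondrial chaperones, proteases and detoxifying enzymes. The product of cco-1, a gene with the newer name cox-5B, belongs to cytochrome c oxidase in the inner membrane, and its RNAi is a standard trigger of that response in worms. mrps-5 encodes a protein of the mitochondrial ribosome and is used as another trigger.

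Gene counts summed to 23605069 to 30496385 in the cco-1 + atfs-1 libraries and to 25000342 to 28277748 in the cco-1 + ev libraries. Libraries of one mixture differed by more than counting noise, since the chi-square divided by its degrees of freedom was 1.77 to 2.08 for pairs of cco-1 + atfs-1 libraries and 2.36 to 2.68 for pairs of cco-1 + ev libraries. One library of a group not compared here, replicate 1 of atfs-1 alone, stood apart, at 32.4 and 33.6 against the other replicates of its group, where every other pair of replicates in the series reached at most 7.07. It enters the shared estimate of the spread. Calls of named genes that it changes in the cco-1 arm or between the arms are given below or in the closing section. So are list counts of the cco-1 arm that it moves beyond 1.5 times. The 27 libraries fell into sets that differed in the count of the ribosomal protein gene rpl-37, whose log2 CPM (CPM, counts scaled by TMM to a common library total) was 5.59 to 5.66 in cco-1 + atfs-1, 5.66 to 5.75 in cco-1 + ev and 3.27 to 3.46 in the libraries of ev alone. Both mixtures therefore lay in one set. In atfs-1 alone it ran from 3.47 to 5.87, so the libraries of that group cross the sets. Which of its replicates was the unusual one was not tested. Values of ev alone are given below as a background level and cross the sets.

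The read count of the targeted gene was not lower. atfs-1, on chromosome V at 14193663 to 14197700 on the plus strand (WBcel235), had 117, 108 and 113 CPM in the libraries labelled cco-1 + atfs-1, against 99.8, 98.3 and 99.4 CPM in the cco-1 + ev libraries. All 3 libraries with the clone were above all 3 without it, by a log2 fold change of 0.18 ± 0.04 (SE, here and below, n = 3 per mixture; edgeR quasi-likelihood test, adjusted p = 0.000182). In the mrps-5 arm the same share of the clone gave 105, 101 and 103 CPM, against 103, 98.7 and 97.4 CPM without it (0.05 ± 0.04, adjusted p = 0.453). The difference between the arms was 0.14 ± 0.05 (adjusted p = 0.228, but 0.0462 in the fit of the compared groups alone). A read count for a fed gene can hold reads of the clone itself as well as reads of the worm transcript, and a gene count does not separate them. The count therefore does not show that atfs-1 was knocked down, and every direction below is that of the libraries labelled cco-1 + atfs-1.

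The count table holds one case where reads of a fed clone may be seen, chosen after its values were seen. F26E4.16, a non-coding gene annotated inside the span of cco-1, had 10.4, 14.7 and 13.9 CPM in cco-1 + atfs-1 and 12.76, 9.46 and 11.8 CPM in cco-1 + ev. It averaged 0.03 CPM in ev alone, 0.09 CPM in mrps-5 + ev and 0.05 CPM in mrps-5 + atfs-1. Its counts overlapped between the cco-1 mixtures, with a log2 fold change of 0.21 ± 0.20 (adjusted p = 0.551). cco-1 itself had 183, 184 and 181 CPM in cco-1 + atfs-1, against 170, 167 and 171 CPM in cco-1 + ev, and averaged 302 CPM in ev alone. The cco-1 difference of 0.11 ± 0.12 on the log2 scale was not called with the spread shared over all 27 libraries (adjusted p = 0.619), nor without replicate 1 of atfs-1 alone (0.0618), and was called when only the 6 libraries were fitted (0.00182). In atfs-1 alone cco-1 had 309, 191 and 198 CPM.

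Of the genes next to atfs-1, ZC376.6, trm-1 and T16A9.3 were tested and not called. ZC376.6 differed by -0.0008 ± 0.0418 on the log2 scale (adjusted p = 0.994), trm-1 by -0.09 ± 0.04 (0.102, but 0.0259 without cco-1 + ev replicate 2 and 0.0499 without replicate 1 of atfs-1 alone) and T16A9.3 by -0.38 ± 0.15 (0.069). Among the other fed targets cbp-1, the acetyltransferase gene targeted elsewhere in the series, differed by 0.07 ± 0.06 (adjusted p = 0.556). mrps-5 fell by 0.19 on the log2 scale (SE 0.04, adjusted p = 0.000219).

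Across the transcriptome, 3358 genes were called at an adjusted p below 0.05, 20.4% of those tested. Of these, 1474 rose (8.97% of genes tested) and 1884 fell (11.5%). Every count of a gene list below is to be read beside these shares. Most changes were small: 222 genes rose by at least 1 on the log2 scale (1.35%) and 241 fell by as much (1.47%), and 5 rose and 17 fell by at least 4. The falls reached further than the rises, from a log2 fold change of -7.79 to one of 4.74, and the median over all genes was 0.00. The plot of change against level shows both tails.

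**Figure D1:**
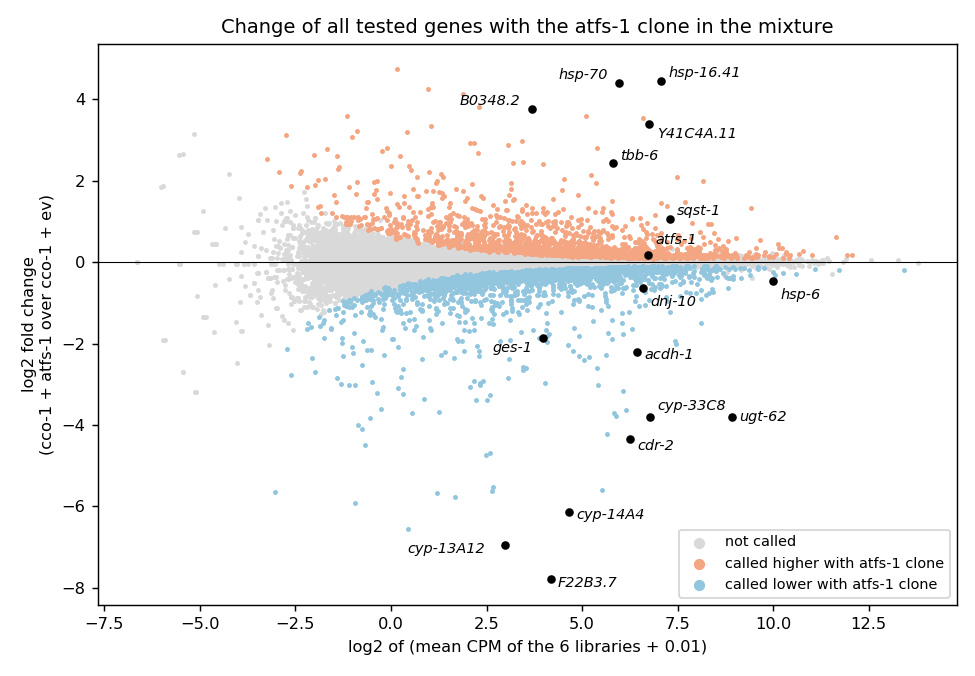
Log2 fold change of cco-1 + atfs-1 over cco-1 + ev (vertical axis) against the log2 of the mean CPM of the 6 libraries plus 0.01 (horizontal axis) for the 16435 genes tested, with called genes coloured by direction and 17 genes of the text in black. hsp-16.41 and hsp-70 stand highest among the named genes, at 4.46 and 4.41, F22B3.7 lowest at -7.79, and atfs-1 itself lies at 0.18.

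The mitochondrial chaperones and proteases fell together. These proteins fold, or degrade, proteins inside the organelle, and 9 of 12 listed genes were called lower and 0 higher, against 11.5% and 8.97% of all genes tested, with a median log2 change of -0.33. Here and in the lists of import, mitochondrial ribosome and respiratory chain genes, 0 genes were higher also at an unadjusted p below 0.05 by edgeR, and 0 with DESeq2. hsp-6, the mitochondrial Hsp70 gene whose promoter drives the reporter, had 879, 847 and 874 CPM in cco-1 + atfs-1, against 1164, 1178 and 1210 CPM in cco-1 + ev. The groups did not overlap, and the level was 0.732 times that of cco-1 + ev (log2 fold change -0.45 ± 0.05, adjusted p = 3.17e-10). ev alone averaged 727 CPM, so the level with the atfs-1 clone lay between ev alone and cco-1 + ev. That background comes from another library set. In atfs-1 alone, where the log2 CPM of rpl-37 ran from 3.47 to 5.87, hsp-6 had 702, 874 and 859 CPM without the cco-1 clone. Whether reads of the reporter enter the hsp-6 count was not tested.

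Larger falls were seen in the partners of the mitochondrial Hsp70. dnj-10, which encodes a mitochondrial DnaJ co-chaperone, had 74.6, 79.0 and 74.9 CPM in cco-1 + atfs-1, against 120, 118 and 113 CPM in cco-1 + ev, with no overlap (-0.62 ± 0.04, adjusted p = 3.59e-17). C34C12.8, the worm GrpE-like nucleotide exchange factor, had 57.6, 53.4 and 57.04 CPM against 83.3, 85.8 and 88.7 CPM in cco-1 + ev (-0.62 ± 0.05, adjusted p = 1.8e-14). Both came close to their levels in ev alone, which averaged 72.0 and 64.9 CPM. The Hsp10-like gene Y22D7AL.10 fell by 0.35 on the log2 scale. hsp-60, its chaperonin partner, had 376, 368 and 378 CPM, against 476, 457 and 456 CPM in cco-1 + ev, and although these did not overlap the difference of -0.31 ± 0.12 was not called in the shared fit (adjusted p = 0.0782). It was called without replicate 1 of atfs-1 alone, where hsp-60 had 256 CPM against 430 and 428 CPM in the other replicates (adjusted p = 9.82e-12), when only the 6 libraries were fitted (2.97e-14) and with DESeq2 (0.0464).

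Among the proteases, spg-7, an inner-membrane AAA protease, fell by 0.37 ± 0.06 (adjusted p = 7.94e-05), and ymel-1, another, by 0.21 ± 0.04. The matrix protease gene lonp-1, listed as C34B2.6, fell by 0.16 ± 0.04 and the ClpP gene clpp-1 by 0.17 ± 0.05 (adjusted p = 0.00742). The clpp-1 call was lost without cco-1 + ev replicate 1 (adjusted p = 0.0521). Of the 2 ClpX-like genes, K07A3.3 fell by 0.39 ± 0.10, while D2030.2 differed by -0.25 ± 0.09 without a call (adjusted p = 0.0659), one that it gained without replicate 1 of atfs-1 alone (1.46e-07), in the 6-library fit (9.06e-08), with DESeq2 (0.0339), without the filter (4.47e-06) and with the filter of 5 CPM in 3 libraries (0.0385). hsp-75, the mitochondrial Hsp90, differed by -0.07 ± 0.04 (adjusted p = 0.23).

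The machinery that imports proteins into mitochondria fell alongside, with 13 of 19 tested genes called lower, 0 higher and a median log2 change of -0.25. timm-23, the channel subunit of the inner-membrane translocase, had 90.5, 84.3 and 96.4 CPM in cco-1 + atfs-1, against 139, 144 and 153 CPM in cco-1 + ev. That is 0.621 times the cco-1 + ev level, with no overlap (-0.69 ± 0.06, adjusted p = 8.84e-11). ZK370.8, now named tomm-70, an outer-membrane receptor, fell by 0.63 on the log2 scale, and E04A4.5, a Tim17 family gene, by 0.53. tin-44, which helps the import motor, fell by 0.44. These import genes came to 103, 153 and 89.04 CPM on average with the atfs-1 clone, against 160, 222 and 121 CPM in cco-1 + ev.

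**Figure D2:**
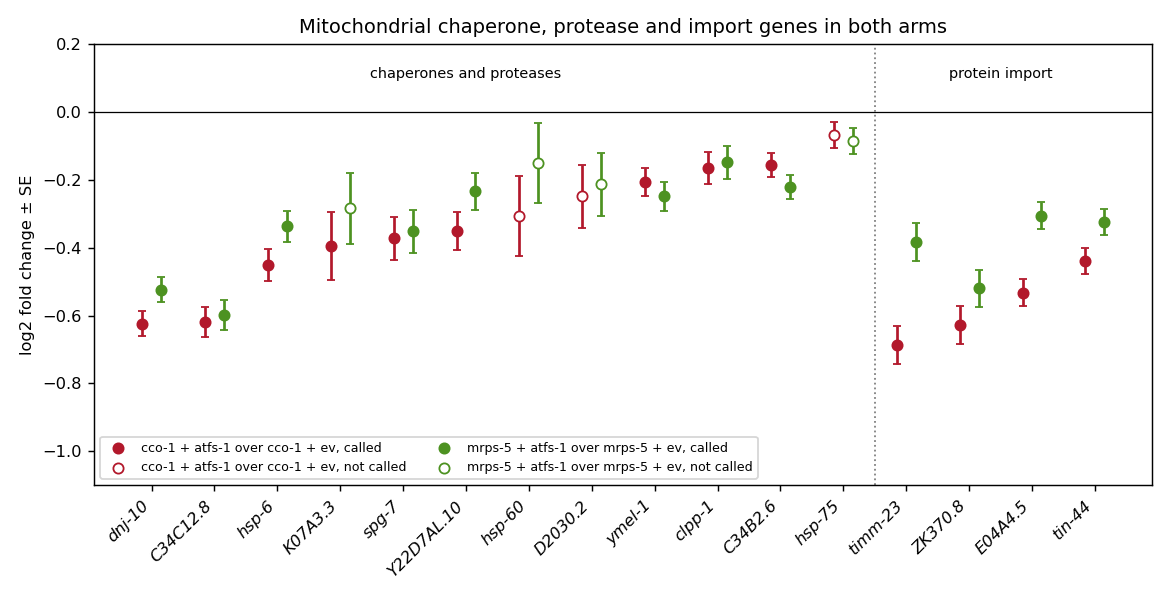
Log2 fold change with its SE for 12 mitochondrial chaperone and protease genes and 4 import genes, for cco-1 + atfs-1 over cco-1 + ev and for mrps-5 + atfs-1 over mrps-5 + ev, with filled points for called genes. All 32 points lie below 0, from -0.69 for timm-23 to -0.07 for hsp-75 in the cco-1 arm.

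Mitochondrial ribosomal protein genes fell by small amounts, but widely: 50 of 70 were called lower and 0 higher, with a median log2 change of -0.19. mrps-14 led them, with 43.5, 44.6 and 42.1 CPM in cco-1 + atfs-1, against 68.7, 71.3 and 70.01 CPM in cco-1 + ev (-0.69 ± 0.04, adjusted p = 7.66e-17). mrpl-37 fell by 0.48, mrpl-39 by 0.37 and K11B4.1 by 0.27. By contrast 0 of 78 cytosolic ribosomal protein genes was called by edgeR in either direction, also 0 at an unadjusted p below 0.05 and 0 with DESeq2, with a median of 0.04. Without the filter 5 of them were called higher, and in the 6-library fit 14.

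Among respiratory chain genes, 14 of 51 nuclear-encoded genes of oxidative phosphorylation were called lower and 0 higher, and the median was 0.02. The lower count was 9 without cco-1 + atfs-1 replicate 1, and the higher count 3 without the filter, 4 without replicate 1 of atfs-1 alone and 10 in the 6-library fit. The called genes include assembly factors and complex I subunits: cox-17, a copper chaperone for cytochrome c oxidase, fell by 0.61, cox-15, which makes its heme A, by 0.36, gas-1 by 0.22 and Y53G8AL.2 by 0.17. The 12 protein-coding genes of the mitochondrial genome had a median log2 change of -0.30, with 1 called lower by edgeR, 5 lower at an unadjusted p below 0.05 and 3 with DESeq2. The count was 4 without replicate 1 of atfs-1 alone, 7 in the 6-library fit, 3 without cco-1 + ev replicate 3, and 3 and 9 with the 5 CPM filter and with none. The called gene was ctb-1, cytochrome b, with 973, 976 and 885 CPM against 1184, 1237 and 1111 CPM in cco-1 + ev (-0.32 ± 0.09, adjusted p = 0.0101), a call lost without cco-1 + atfs-1 replicate 3 (0.0547) and without cco-1 + ev replicate 2 (0.05).

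Of 21 regulators of mitochondrial stress 7 were called higher (33.3%) and 1 lower (4.76%), against 8.97% and 11.5% of all genes tested. Among the 7 is atfs-1 itself, whose count may hold reads of the clone. The higher count was 4 without cco-1 + atfs-1 replicate 3, cco-1 + ev replicate 1 or cco-1 + ev replicate 3. The lower count was 3 without replicate 1 of atfs-1 alone. cebp-1, a bZIP factor, had 23.4, 23.8 and 26.0 CPM in cco-1 + atfs-1, against 13.03, 14.5 and 15.9 CPM in cco-1 + ev (0.75 ± 0.07, adjusted p = 3.95e-11). atf-5, the worm relative of ATF4, rose by 0.20 ± 0.05 (adjusted p = 0.00553), a call lost without cco-1 + ev replicate 3 (0.0649). zip-3, which encodes a bZIP protein that holds ATFS-1 activity down in worms, had 30.2, 30.8 and 33.6 CPM, against 41.6, 41.1 and 42.0 CPM in cco-1 + ev, and averaged 60.4 CPM in ev alone. It fell by 0.40 ± 0.05 (adjusted p = 4.65e-08).

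Several of the deepest falls took genes that were raised in cco-1 + ev down to their level in ev alone or below it. F22B3.7 had 0.170, 0.0702 and 0.229 CPM (4, 2 and 7 counts) in cco-1 + atfs-1, against 38.3, 35.0 and 34.6 CPM in cco-1 + ev, and averaged 0.410 CPM in ev alone. cyp-13A12, a cytochrome P450, had 2, 7 and 1 counts with the atfs-1 clone, against 402, 408 and 434 counts in cco-1 + ev. At counts this low the fitted changes of -7.79 ± 0.16 and -6.96 ± 0.22 depend on few reads, although no library of one mixture came near those of the other.

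Detoxification genes were among the deep falls. Of 69 P450 genes tested 13 fell by at least 1 on the log2 scale, and of 63 UDP-glucuronosyltransferase genes 5. Of 42 glutathione transferase genes 2 fell as far, against 1.47% of all genes tested (241 genes). cyp-14A4 had 0.552, 0.877 and 0.654 CPM in cco-1 + atfs-1, against 49.4, 50.2 and 48.8 CPM in cco-1 + ev (-6.13 ± 0.10, adjusted p = 1.91e-36), and averaged 1.72 CPM in ev alone. cyp-13A7 and cyp-13A8, neighbours on chromosome II, fell by 5.63 and 5.53. They lie in a tandem family of similar genes, so the authors' counting could split reads among them. cyp-33C8 had 14.4, 14.3 and 14.8 CPM, against 213, 201 and 196 CPM in cco-1 + ev (-3.81 ± 0.05).

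UDP-glucuronosyltransferases attach sugar acids to foreign compounds. ugt-62 had 66.5, 68.2 and 59.9 CPM in cco-1 + atfs-1, against 926, 904 and 901 CPM in cco-1 + ev, with ev alone at 89.6 CPM on average (-3.81 ± 0.05, adjusted p = 1.01e-40). ugt-19 fell by 3.701 and ugt-61 by 2.03, while ugt-25 had 59.3, 63.8 and 60.96 CPM against 12.56, 16.36 and 13.2 CPM in cco-1 + ev (2.13 ± 0.07, adjusted p = 3.51e-23). These enzyme families did not move as a block: 14 P450 genes rose (9 without cco-1 + atfs-1 replicate 2, 8 without cco-1 + ev replicate 3) and 21 fell of 69 tested, 14 UDP-glucuronosyltransferase genes rose and 17 fell of 63, and 7 glutathione transferase genes rose and 10 fell of 42. gst-38 rose by 1.54, gst-1 by 0.94 and gst-20 by 0.88, and gst-13 fell by 1.09. Summed over the list, P450 genes came to 550 to 570 CPM in cco-1 + atfs-1, against 858 to 891 CPM in cco-1 + ev.

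**Figure D3:**
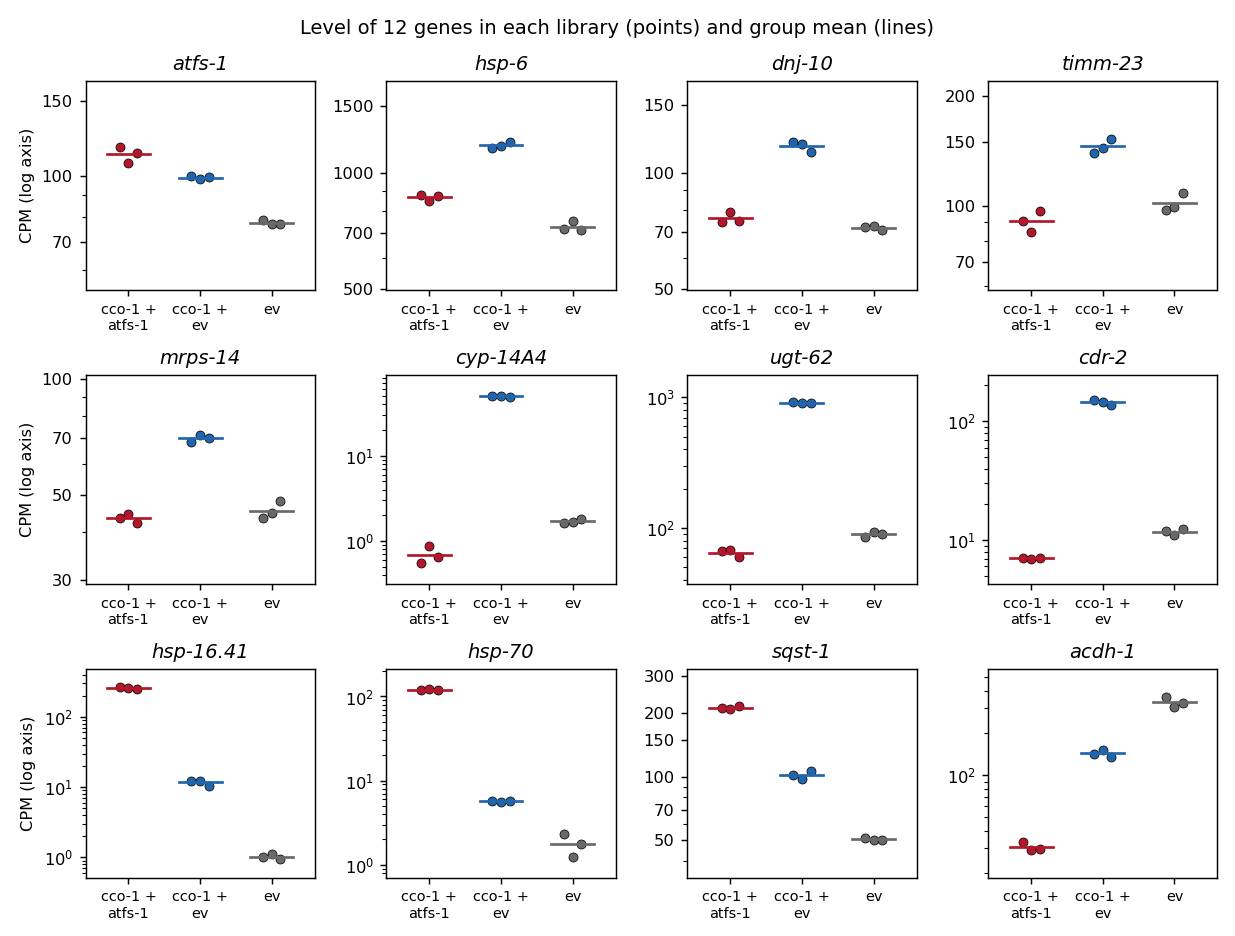
CPM on a log axis for 12 genes in each library (points) of cco-1 + atfs-1, cco-1 + ev and ev alone, with the mean of each group (lines). In each panel the 3 cco-1 + atfs-1 points lie apart from the 3 cco-1 + ev points, above them for atfs-1, hsp-16.41, hsp-70 and sqst-1 and below them for the others.

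The remaining genes of the 10 deepest falls were of other kinds. cdr-2, of a cadmium-responsive family, had 7.05, 6.98 and 7.09 CPM in cco-1 + atfs-1, against 151, 144 and 138 CPM in cco-1 + ev (-4.36 ± 0.06, adjusted p = 3.47e-39). The C-type lectin genes clec-4 and clec-17, of a family with roles in defence, fell by 5.61 and 4.68, and the neighbouring genes B0205.14 and B0205.13 by 4.74 and 4.23. In the metallothionein and cdr list, 3 of 7 genes fell and 0 rose, the others being cdr-4 (-0.75) and cdr-6 (-0.35). gpx-7, a glutathione peroxidase, fell by 3.02, and in the antioxidant list 6 of 26 fell and 1 rose, with msra-1 at -0.73, trx-2, mitochondrial thioredoxin, at -0.46 and sod-4, an extracellular superoxide dismutase, at 0.41.

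Cytosolic heat shock genes were among the largest rises. Of 16 tested, 12 were called higher and 0 lower, with a median log2 change of 0.24. hsp-16.41 had 262, 257 and 252 CPM in cco-1 + atfs-1, against 12.4, 12.2 and 10.6 CPM in cco-1 + ev (4.46 ± 0.07, adjusted p = 4.2e-34), and ev alone averaged 1.03 CPM. hsp-70, an inducible cytosolic Hsp70, had 119, 122 and 120 CPM, against 5.66, 5.56 and 5.77 CPM in cco-1 + ev (4.41 ± 0.08, adjusted p = 1.38e-35). hsp-16.2 had 182.3, 176 and 180 CPM, against 16.6, 13.8 and 15.3 CPM in cco-1 + ev. The levels of hsp-70 and hsp-16.2 were 21.2 and 11.8 times those of cco-1 + ev.

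The pair hsp-16.2 and hsp-16.41, which encode small heat shock proteins, share a promoter region and have close copies, as do F44E5.4 and F44E5.5, so single members are uncertain. hsp-16.48 rose by 3.59, hsp-17 by 0.96, and F44E5.4 and F44E5.5 by 2.28 and 2.33 at under 1 CPM. Constitutive members rose by far less: daf-21, the cytosolic Hsp90, by 0.17 ± 0.03 and hsp-1, a cytosolic Hsp70, by 0.17 ± 0.05. The regulator hsf-1 differed by 0.02 ± 0.06 (adjusted p = 0.884).

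Other protein quality control lists rose in part and by small amounts. In the endoplasmic reticulum list 12 of 18 rose and 0 fell (median 0.14), with hsp-3, an ER Hsp70, at 0.21, hsp-4, the inducible ER Hsp70, at 0.11 and xbp-1 at 0.03, which was not called (adjusted p = 0.682). In the proteasome list 11 of 33 rose, or 33.3% against 8.97% of all genes tested, and 0 fell (median 0.08), with pbs-7 at 0.16 and pbs-3 at 0.15. The proteasome count was 7 without cco-1 + atfs-1 replicate 1 or cco-1 + ev replicate 2 and without the filter, 18 with DESeq2, 21 without replicate 1 of atfs-1 alone and 24 in the 6-library fit. Autophagy and lysosome genes rose in 14 of 32 cases (9 without cco-1 + atfs-1 replicate 1) and fell in 0 (median 0.12). sqst-1, the worm p62 that links ubiquitinated cargo to autophagy, had 213, 209 and 217 CPM in cco-1 + atfs-1, against 102, 98.1 and 106 CPM in cco-1 + ev, a rise of 1.06 ± 0.04 (adjusted p = 3.66e-24). The membrane protein genes lmp-2 and lmp-1 of the lysosome rose by 0.83 and 0.23, and bec-1, worm Beclin, by 0.26.

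The remaining large rises were scattered over families. Y41C4A.11 had 195, 193.4 and 206 CPM in cco-1 + atfs-1, against 19.2, 18.8 and 18.5 CPM in cco-1 + ev (3.40 ± 0.05, adjusted p = 2.34e-37). B0348.2, asp-17, C25F9.11, F33H12.7 and arf-1.1 rose by 3.76, 2.98, 2.87, 2.80 and 2.46. asp-17 is an aspartyl protease gene, and in the list of aspartyl and cathepsin B-like proteases 11 of 22 rose and 5 fell. F57F5.1, now named cpr-9, rose by 1.33 from a high level, with 988, 975 and 947 CPM against 392, 387 and 380 CPM in cco-1 + ev, while asp-8 fell by 3.16.

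**Figure D4:**
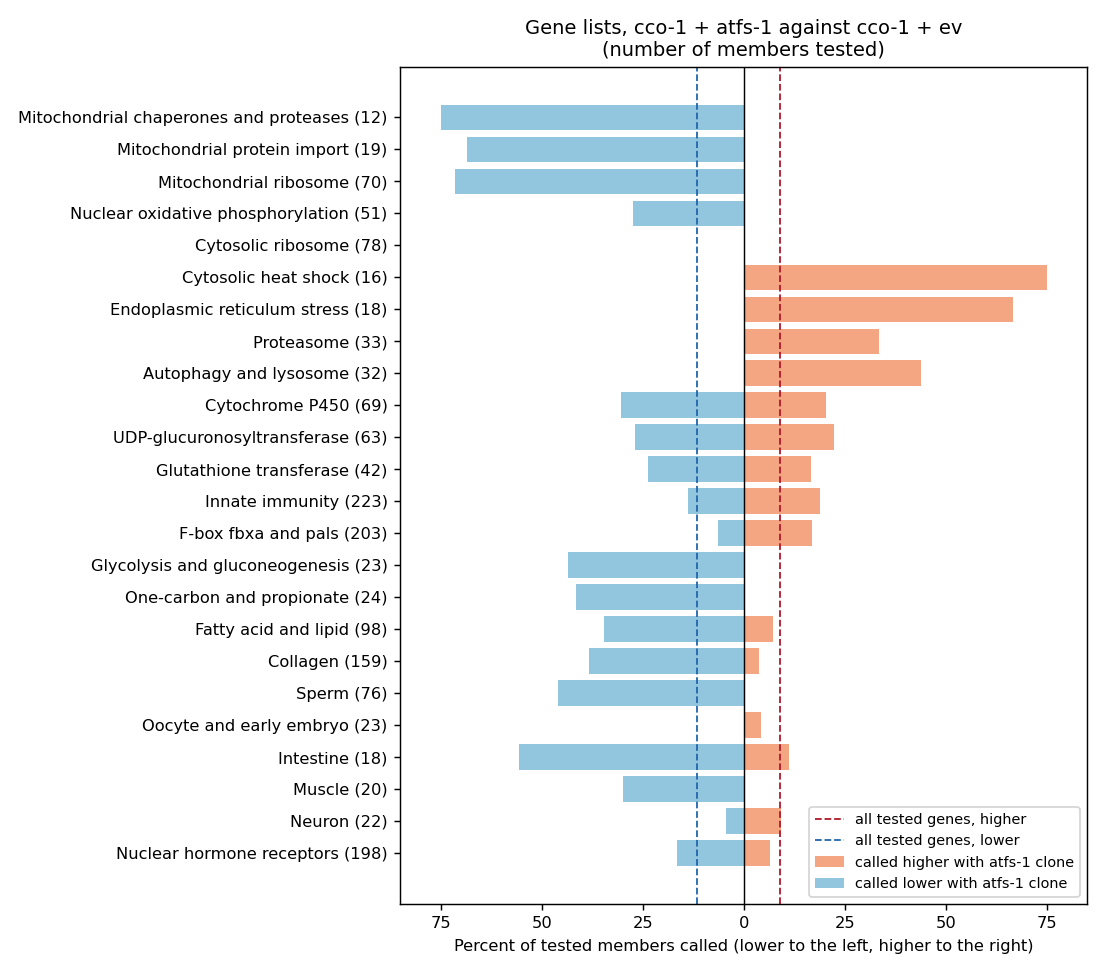
Percent of tested members called lower (to the left) and higher (to the right) in cco-1 + atfs-1 against cco-1 + ev for 24 gene lists, with the number tested in brackets and dashed lines at 8.97% higher and 11.5% lower for all genes tested. The lists of mitochondrial chaperones and proteases, import, mitochondrial ribosome and oxidative phosphorylation lie to the left with 0 members called higher, and the heat shock, ER, proteasome and autophagy lists lie to the right with 0 called lower.

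Defence genes moved both ways. In the innate immunity list 42 of 223 tested rose (18.8%) and 31 fell (13.9%), against 8.97% and 11.5% of all genes tested. clec-66 fell by 2.42, clec-10 by 2.32 and clec-265 by 2.28. Among fbxa F-box and pals genes, many of them near copies of each other, 34 of 203 rose and 13 fell. fbxa-30 rose by 2.103, fbxa-98 by 1.31 and fbxa-182 by 0.94, and C17H1.7 fell by 2.35.

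Metabolic genes fell more often than they rose, as did all genes tested, of which 11.5% fell and 8.97% rose. The propionate shunt breaks down propionyl-CoA when vitamin B12 is short, and its first enzyme is acdh-1, an acyl-CoA dehydrogenase. acdh-1 had 33.3, 29.4 and 29.9 CPM in cco-1 + atfs-1, against 142, 151 and 136 CPM in cco-1 + ev (-2.21 ± 0.12, adjusted p = 2.03e-11). ev alone averaged 332 CPM, so both mixtures were below it and the one with the atfs-1 clone was lowest. The next shunt genes followed: Y38F1A.6 (hphd-1) had 43.6, 46.3 and 44.5 CPM, against 102, 107 and 108 CPM in cco-1 + ev (-1.23 ± 0.05), and ech-6 fell by 0.49. In the list of one-carbon and propionate genes 10 of 24 fell (41.7%) and 0 rose in the main edgeR fit. The higher count was 2 at an unadjusted p below 0.05, with DESeq2 and without replicate 1 of atfs-1 alone. It was 1 with RLE scaling and in the 6-library fit. The list also holds the cystathionine gamma-lyase genes cth-1 and cth-2, which make cysteine and fell by 1.24 and 0.82.

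Glycolytic genes fell in 10 of 23 cases and rose in 0 by edgeR (2 were higher at an unadjusted p below 0.05, and 2 with DESeq2), with gpd-2, a glyceraldehyde-3-phosphate dehydrogenase, at -0.66, ipgm-1 at -0.45, pyk-2 at -0.40 and gpd-3 at -0.37. In the tricarboxylic acid list 8 of 28 fell and 2 rose, with dld-1 at -0.29, aco-2, aconitase, at -0.26, pdhb-1 at -0.22 and cts-1, citrate synthase, at 0.20. Lipid genes fell in 34 of 98 cases and rose in 7. The fatty acid binding protein gene lbp-6 fell by 0.83 and the elongase gene elo-6, which makes branched-chain fatty acids, by 0.75, and acox-5, a peroxisomal oxidase, rose by 1.01. Of 15 hypoxia and iron genes 4 rose and 5 fell, among them cysl-2 at 0.87, asp-10 at 0.34, cysl-1 at -0.61 and the ferritin gene ftn-1 at -2.29 on few counts. Genes associated with DAF-16, the insulin-pathway FOXO factor, fell in 7 of 18 cases and rose in 1, with dod-24 at -1.67, dod-17 at -1.66 and the insulin gene ins-7 at 1.08.

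Markers of tissues and stages are set beside the 8.97% of all genes tested that rose and the 11.5% that fell. Intestinal markers fell in 10 of 18 cases (55.6%) and rose in 2. The gut esterase gene ges-1 had 6.41, 7.97 and 6.18 CPM in cco-1 + atfs-1, against 24.1, 25.5 and 25.0 CPM in cco-1 + ev (-1.86 ± 0.08, adjusted p = 3.94e-22). pho-1, a gut acid phosphatase, fell by 1.08, vha-6, an apical proton pump subunit, by 0.62 and ifb-2, a filament protein, by 0.47, whereas the gut GATA factor elt-2 rose by 0.36 and the microvillar actin act-5 by 0.54. Summed, the intestinal list came to 2769 to 2792 CPM with the atfs-1 clone, against 2868 to 2952 CPM in cco-1 + ev.

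Sperm genes fell in 35 of 76 cases and rose in 0, with a median log2 change of -0.28 and sums of 846 to 865 CPM in cco-1 + atfs-1, against 988 to 1048 CPM in cco-1 + ev. Many of them, such as msp-40 (-0.34), belong to a family of near-identical copies, while spe-15, a single myosin gene, fell by 0.28. Collagen genes fell in 61 of 159 cases and rose in 6 (median -0.30), col-129 by 0.40 and col-150 by 0.59. Of 23 oocyte and early embryo genes, which mark adults, 1 was called (pos-1, 0.10 ± 0.03, adjusted p = 0.0326), a call lost when any of the 6 libraries was left out. By DESeq2 5 were higher, at an unadjusted p below 0.05 by edgeR 4, in the 6-library fit 6 and without replicate 1 of atfs-1 alone 3. Their sums were 13742 to 14018 CPM with the atfs-1 clone, against 12966 to 13541 CPM in cco-1 + ev. Among yolk genes vit-4 fell by 0.53 and vit-2 by 0.20, and vit-5 differed by 0.18 ± 0.06 (adjusted p = 0.0277), a call lost in the 6-library fit (0.214) and without cco-1 + atfs-1 replicate 1 (0.258) or cco-1 + ev replicate 1 (0.172) or 3 (0.0535).

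Muscle markers fell in 6 of 20 cases, tnt-3, a troponin T, by 0.41, myo-1 by 0.21 and the body-wall myosin unc-54 by 0.20. Neuronal markers were called in 3 of 22 cases, 9.09% higher and 4.55% lower, unc-18 at 0.26 and bas-1 at -0.54 among them. Of the neuropeptide and insulin genes tested 7 rose (5.43%, a count of 4 without cco-1 + atfs-1 replicate 1 or 2) and 3 fell (2.33%). Molting genes fell in 3 of 31 cases (9.68%), a count of 0 without cco-1 + atfs-1 replicate 1 or cco-1 + ev replicate 2 and of 1 without cco-1 + atfs-1 replicate 3. Hypodermal markers fell in 7 of 43 (16.3%), a count of 3 or 4 when any library other than cco-1 + atfs-1 replicate 2 was left out. Of 26 germline genes 1 was called lower (3.85%), him-3 by 0.10, a call lost with DESeq2 (0.0623) and without cco-1 + atfs-1 replicate 1 (0.0507) or 2 (0.102) or cco-1 + ev replicate 1 (0.189), and of 32 histone genes 2 rose (6.25%). The part that tissue or stage make-up has in the other differences was not tested.

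Of 53 RNAi genes, through which fed clones act, 7 rose (13.2%) and 4 fell (7.55%, a count of 2 without cco-1 + atfs-1 replicate 3), against 8.97% and 11.5% of all genes tested. sid-2, the intestinal receptor for ingested double-stranded RNA, had 21.9, 22.5 and 22.3 CPM in cco-1 + atfs-1, against 8.47, 10.1 and 9.57 CPM in cco-1 + ev (1.24 ± 0.08, adjusted p = 7.81e-17). rrf-2, an RNA-dependent RNA polymerase gene, rose by 0.73 and drh-2, related to the Dicer-associated helicases, by 0.63, while the Argonaute gene alg-4 fell by 0.36. Nuclear hormone receptor genes fell in 33 of 198 cases and rose in 13, and 10 of them fell by at least 1 on the log2 scale, such as nhr-193 (-2.97), nhr-115 (-2.37), nhr-210 (-1.42) and nhr-90 (-1.21).

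Large changes were unevenly placed along the genome. Chromosome V held 20.2% of tested genes, 37.3% of those that fell by at least 1 on the log2 scale and 31.98% of those that rose by as much. Of 241 such falls, 33.6% lay within 10 kb of another such fall, and of 220 such rises with a position, 24.1% lay within 10 kb of another. Of all tested genes with a position, 5.60% and 5.30% had such a neighbour. The change had a Spearman correlation of 0.02 with exon length across 16332 genes, which are not independent replicates.

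The same clone in the mrps-5 arm gave a comparison that shares no library with the cco-1 arm. There, 2765 genes were called in mrps-5 + atfs-1 against mrps-5 + ev (16.8% of those tested), 1125 higher (6.85%) and 1640 lower (9.98%). Higher calls in both arms numbered 739, which is 50.1% of those of the cco-1 arm and 65.7% of those of the mrps-5 arm. Lower calls in both arms numbered 1128, or 59.9% and 68.8%. Opposite calls were few, with 24 genes higher in the cco-1 arm and lower in the mrps-5 arm and 13 the other way round. Across all genes the log2 changes of both arms had a Pearson correlation of 0.67, given as a description.

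In the mitochondrial quality control genes the difference between the arms was seldom called. Of the 12 chaperones and proteases 8 fell in the mrps-5 arm, and 0 differed between the arms (0 also at an unadjusted p below 0.05 by edgeR, and 0 with DESeq2). One, hsp-60, gained a called difference without replicate 1 of atfs-1 alone (-0.16, adjusted p = 0.0278). hsp-6 had 952, 979 and 951 CPM in mrps-5 + atfs-1, against 1195, 1228 and 1217 CPM in mrps-5 + ev, a log2 fold change of -0.34. The difference between the arms was -0.11 ± 0.07 (adjusted p = 0.636). Among import genes 2 fell further in the cco-1 arm, timm-23 (difference -0.30 ± 0.08, adjusted p = 0.0269) and E04A4.5 (-0.23). Leaving out 1 library ended the timm-23 call for 6 of the 12 libraries, with adjusted p of 0.0591 to 0.0881, and the E04A4.5 call for 2. The mitochondrial ribosome list had 19 of 70 genes called lower in the mrps-5 arm, and 3 differed between the arms, among them mrps-14 (-0.23). At an unadjusted p below 0.05 by edgeR, 4 of 19 import genes and 15 of 70 mitochondrial ribosome genes had a more negative change in the cco-1 arm. In both lists 0 had a more positive one. The median log2 change was -0.25 in the cco-1 arm and -0.14 in the mrps-5 arm for import genes. For mitochondrial ribosome genes it was -0.19 and -0.09.

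Over all genes, 573 differed between the arms (3.49% of those tested), 303 with a more positive change in the cco-1 arm (1.84%) and 270 with a more negative one (1.64%). Of those 303 genes 264 were called higher in the cco-1 arm, and in the mrps-5 arm 122 were called higher and 58 lower. Of those 270 genes 223 were called lower in the cco-1 arm, and in the mrps-5 arm 56 were called higher and 106 lower. The changes in both arms make up the difference by which these genes were chosen, so their directions are partly set by that choice. Several of the deepest falls were called in both arms at similar depth. F22B3.7 had a log2 fold change of -7.79 in the cco-1 arm and -7.46 in the mrps-5 arm, cyp-14A4 one of -6.13 and -5.81, and cdr-2 one of -4.36 and -4.06. For cdr-2 the difference was called in the fit of the compared groups alone (adjusted p = 0.0487), without cco-1 + ev replicate 3 (0.0357) and without mrps-5 + atfs-1 replicate 2 (0.0391). Others fell further in the cco-1 arm, such as clec-4 at -5.61 and -4.20 (difference -1.41, adjusted p = 3.54e-08).

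**Figure D5:**
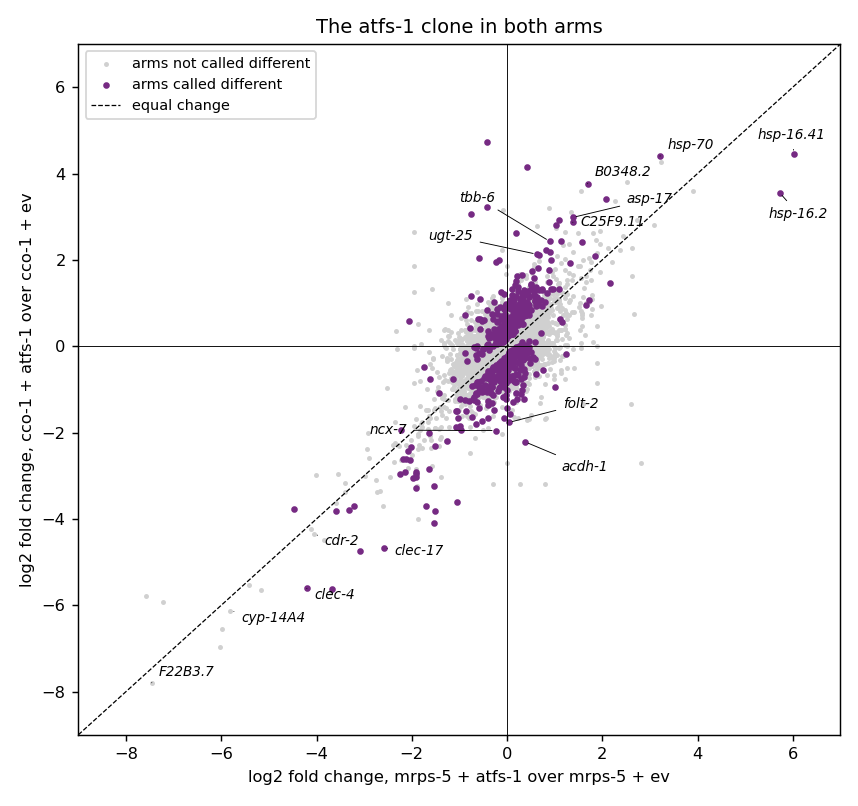
Log2 fold change with the atfs-1 clone in the cco-1 arm (vertical axis) against that in the mrps-5 arm (horizontal axis) for the 16435 genes tested, with the 573 genes whose change differed between the arms in purple and a dashed line of equal change. acdh-1 and folt-2 lie well below the line, at -2.21 and -1.77 in the cco-1 arm, and hsp-16.2 below it at the upper right.

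The propionate shunt gene acdh-1 and the folate gene folt-2 fell in the cco-1 arm and not in the mrps-5 arm. acdh-1 had 268, 212 and 252 CPM in mrps-5 + atfs-1, against 172, 209 and 184 CPM in mrps-5 + ev, so it was higher with the clone there and lower in the cco-1 arm, and the difference was -2.59 ± 0.16 (adjusted p = 1.59e-09). Y38F1A.6 had a log2 change of -0.03 in the mrps-5 arm (difference -1.202). folt-2, a folate transporter family gene, had 31.1, 29.6 and 30.6 CPM in cco-1 + atfs-1, against 97.7, 111 and 102 CPM in cco-1 + ev. In the mrps-5 arm it had 218, 195 and 207 CPM with the clone, against 204, 205.4 and 195 CPM without it, and the difference was -1.80 ± 0.08 (adjusted p = 3.34e-16). ncx-7, a sodium-calcium exchanger family gene, differed by -1.72. In the list of one-carbon and propionate genes 9 of 24 had a more negative change in the cco-1 arm and 1 a more positive one.

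The inducible heat shock genes hsp-16.2, hsp-16.41 and hsp-70 rose in both arms, from unequal levels without the clone. hsp-16.2 had 78.1, 89.3 and 84.6 CPM in mrps-5 + atfs-1, against 1.58, 1.67 and 1.52 CPM in mrps-5 + ev. Its level with the clone was thus lower than in cco-1 + atfs-1, while its log2 rise was larger, 5.72 against 3.56 in the cco-1 arm (difference -2.17 ± 0.13, adjusted p = 9.63e-16). hsp-16.41 differed likewise by -1.57, and hsp-70 the other way by 1.19. Genes that rose further in the cco-1 arm included B0348.2 (difference 2.07), asp-17 (1.60), tbb-6 (1.54), ugt-25 (1.51) and C25F9.11 (1.49). tbb-6, a beta-tubulin gene, had 91.0, 95.8 and 96.6 CPM in cco-1 + atfs-1, against 15.8, 18.8 and 18.01 CPM in cco-1 + ev, but 26.5, 24.5 and 24.8 CPM in mrps-5 + atfs-1 against 13.7, 13.4 and 13.7 CPM in mrps-5 + ev.

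Genes raised by the other mitochondrial clone give a set chosen without the 6 libraries compared. Of 258 genes at least 1 higher on the log2 scale in mrps-5 + ev than in ev alone, 139 (53.9%) were called lower in cco-1 + atfs-1 against cco-1 + ev and 21 (8.14%) higher, with a median log2 change of -0.78. Of 247 genes lowered as far by mrps-5, 11 (4.45%) were called lower and 42 (17.004%) higher, with a median of 0.18. The set was defined across the library sets named above, and its use here was chosen after the data were seen.

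Set against the mixture of 50% cco-1, 25% cbp-1 and 25% ev, the cco-1 + atfs-1 libraries differed in 7318 genes (44.5% of those tested), 3762 higher (22.9%) and 3556 lower (21.6%). The shares of the added clones differ, so the sizes of these differences are not those of equal doses. hsp-16.2 averaged 179 ± 3.31 CPM (SD, n = 3 each here) in cco-1 + atfs-1 and 3.45 ± 0.431 CPM in cco-1 + cbp-1, and hsp-70 120 ± 1.51 and 3.37 ± 0.0842 CPM. tbh-1, the tyramine beta-hydroxylase of octopamine synthesis, averaged 151 ± 3.44 CPM with atfs-1 and 4.07 ± 0.291 CPM with cbp-1. comt-4 averaged 0.556 ± 0.221 CPM with atfs-1 and 65.2 ± 1.65 CPM with cbp-1, and F22G12.1, now named pals-14, 0.793 ± 0.065 and 93.3 ± 5.34 CPM. Of the 12 mitochondrial chaperones and proteases, 2 were called higher with atfs-1, Y22D7AL.10 (0.42) and hsp-60 (0.38, adjusted p = 0.0133), and 3 lower, D2030.2 (-0.39), ymel-1 (-0.18) and dnj-10 (-0.14). hsp-6 was at 866 ± 17.3 CPM with atfs-1 and 839 CPM on average with cbp-1, a log2 difference of 0.05 (adjusted p = 0.459).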

How the data were processed

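RNA of whole worms was sequenced after poly(A) enrichment, per the labels' protocols. The submitters' processing notes name STAR 2.6.0a for alignment, HTSeq 0.10.0 for counting and the build WBcel235. The deposited values are whole, unscaled counts. Strand setting and read trimming are not given in the sources used here. Summary lines without a gene held 9.30% to 9.73% of counts in the 6 libraries and were left out. Gene positions came from Ensembl annotation release 115 of the same build, which held 46483 of 46738 genes.

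edgeR 4.0.16 in R 4.3.3 was run on all 27 libraries with 1 coefficient per group: filterByExpr with a minimum count of 10, TMM factors, a robust quasi-likelihood fit and F tests. A call needed a p below 0.05 after Benjamini-Hochberg adjustment over all 16435 genes, and every adjusted p in the report comes from that test unless another is named. CPM values use the same factors. The common biological coefficient of variation was 4.18% and the median SE of a log2 change 0.10. Alternatives were a fit of the compared groups alone, leaving out each library, a block on replicate numbers, no filter or 5 CPM in at least 3 libraries, scaling by RLE or the upper quartile, and DESeq2 1.42.0. A fit without replicate 1 of atfs-1 alone was added after seeing the data. Same-numbered libraries of the cco-1 mixtures did not deviate together (r of -0.002 to 0.019), so the numbers do not pair them.

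In simulated data on 16152 genes with 200 changed, the comparison of the cco-1 mixtures found 62.6% of the 1.5-fold changes and 89.8% of the 2-fold changes, with 6 false calls. The difference between the arms recovered 47.5% and 76.5%, with 5 false calls. Each gene was drawn independently.

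The 40 gene lists come from textbook knowledge of the worm, and members and lists were chosen with earlier results of these data known. Named genes are the 4 fed targets, the 12 mitochondrial chaperones and proteases, at most 4 called members per list, by smallest adjusted p, the 10 largest rises and 10 largest falls among genes averaging 5 CPM or more, the 5 largest each way between arms and against cco-1 + cbp-1, and neighbours of atfs-1. Other named genes (F26E4.16, hsp-17, F44E5.4, F44E5.5, daf-21, hsp-1, hsf-1, hsp-4, xbp-1, elt-2 and act-5) were chosen after their values were seen. ctc-2 and vit-3 also lie outside the rule and are named only for a difference between the arms. Lists are described by counts and medians, with no set test.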

Additional observations from a re-analysis of the deposited data

Results flagged for a closer look

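The change with the atfs-1 clone differed between the cco-1 arm and the mrps-5 arm for 303 genes in the positive and 270 genes in the negative direction, by the edgeR test of the difference itself (adjusted p below 0.05). The values are the log2 change in the cco-1 arm minus that in the mrps-5 arm. The genes were chosen by the naming rule, except hsp-17, chosen after its values were seen, and ctc-2 and vit-3, which the rule does not give.

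A more positive change in the cco-1 arm was found for B0348.2 (2.07), asp-17 (1.60), tbb-6 (1.54), ugt-25 (1.51), C25F9.11 (1.49), fbxa-30 (1.44), Y41C4A.11 (1.33), hsp-70 (1.19), ins-7 (0.94), acox-5 (0.91) and cdr-4 (0.86). Smaller positive differences were found for cysl-2 (0.71), sid-2 (0.68), fbxa-98 (0.58), ctc-2 (0.44), lmp-2 (0.42), rrf-2 (0.35), sqst-1 (0.34), fbxa-182 (0.32), F57F5.1 (0.23) and gst-1 (0.22).

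The most negative differences were those of acdh-1 (-2.59), hsp-16.2 (-2.17), clec-17 (-2.09), cyp-13A7 (-1.96), folt-2 (-1.80), ncx-7 (-1.72), B0205.14 (-1.66), hsp-16.41 (-1.57), clec-4 (-1.41), Y38F1A.6 (-1.202), gpx-7 (-1.11), asp-13 (-1.01) and ges-1 (-0.87). Negative differences of middle size were those of clec-10 (-0.81), pho-1 (-0.75), nhr-193 (-0.72), hsp-17 (-0.70), dod-24 (-0.64), vha-6 (-0.55), cyp-33C8 (-0.50), ugt-19 (-0.49), vit-4 (-0.49), gst-13 (-0.44), elo-6 (-0.43), ech-6 (-0.43) and tnt-3 (-0.40). The smallest were those of cth-1 (-0.37), bas-1 (-0.36), msra-1 (-0.33), clec-66 (-0.33), pyk-2 (-0.32), timm-23 (-0.30), cth-2 (-0.27), vit-2 (-0.27), vit-3 (-0.25), ugt-62 (-0.23), mrps-14 (-0.23), E04A4.5 (-0.23), mrps-5 (-0.22) and lbp-6 (-0.22).

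The chaperone and protease list held 0 genes with a called difference between the arms. hsp-60 gained one when only the groups compared were fitted (-0.15, adjusted p = 0.0253) and without replicate 1 of atfs-1 alone (-0.16, 0.0278). Without that replicate, positive differences were also called for asp-10 (0.20, adjusted p = 0.00178), gst-20 (0.31, 0.00511), nhr-115 (0.57, 0.0492) and arf-1.1 (0.59, 0.0311). Negative ones were then called for pdhb-1 (-0.18, 0.0014), mrpl-39 (-0.23, 0.034), cox-17 (-0.46, 0.0284) and C17H1.7 (-0.76, 0.0459).

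Some of these calls did not hold when 1 library was left out. Each such omission kept 474 to 493 of the 573 calls over all genes. Among the named genes, leaving out 1 of the 12 libraries of both arms ended the call of a difference for 15, with adjusted p of 0.0504 to 0.293. These were cyp-13A7 (9 of the libraries), lmp-2, fbxa-98 and fbxa-182 (8 each), lbp-6 (7), timm-23 and clec-66 (6 each), nhr-193 and rrf-2 (5 each), ugt-62 (3), and B0205.14, E04A4.5, fbxa-30, mrps-14 and mrps-5 (2 each). DESeq2 ended the calls of fbxa-98 (0.0643) and lbp-6 (0.0586).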

How the results depend on the processing

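No called result reversed under any alternative. The filter of 5 CPM in 3 libraries left 10496 genes and, by leaving out low genes, 114 rises and 126 falls of at least 1 on the log2 scale. It left 89 of 121 genes raised by mrps-5 called lower. With only the groups compared, 466 genes had a more positive change in the cco-1 arm, the cause of which was not tested. Every other count of calls over all genes stayed within 1.5 times the reported one. Counts within a gene list, or list medians, moved further in 75 cases, and 50 more when a library was left out. Without the filter the heat shock list's median was 0.97. The fit of only the groups compared called 1929 genes higher and 2235 lower in the cco-1 arm.

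The same-numbered libraries are not shown to be paired, and the replicate block kept 3267 of the 3358 calls in their direction. Leaving out 1 library gave 2743 to 2933 calls in the cco-1 arm (1208 to 1243 higher, 1501 to 1710 lower), 2062 to 2406 in the mrps-5 arm, 486 to 521 between the arms, 6537 to 6690 against cco-1 + cbp-1, and 135 to 139 of the genes raised by mrps-5 called lower. RLE scaling kept 3209 calls and DESeq2 2952, with 0 changes of sign. Among named genes, settings other than leaving out a library of the groups compared ended 20 calls and added 45. Leaving out replicate 1 of atfs-1 alone, chosen after seeing the data, gave 3995 calls in the cco-1 arm (1847 higher, 2148 lower), with 3357 of the 3358 kept, 3485 in the mrps-5 arm (1591 and 1894), 769 between the arms (411 and 358) and 8093 against cco-1 + cbp-1 (4159 and 3934). It gave 230 rises and 247 falls of at least 1 on the log2 scale and 146 of 273 genes raised by mrps-5 called lower. Within lists, the higher count went from 7 to 11 for lipid genes, 2 to 4 for intestinal markers and 1 to 2 for antioxidant genes. The lower count went from 3 to 6 for neuropeptide and insulin genes, and from 1 to 2 for germline genes and for neuronal markers. Counting error limits the genes near 0 in one mixture, and recovery of 1.5-fold changes in simulated data was partial.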
